A study of Saccharomyces cerevisiae with 13 samples.

Results

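The ribosomal protein genes described here are a list of 60 genes for proteins of both ribosomal subunits, chosen by name and away from chromosome 12. Of these, 58 were present among the 6326 genes of the deposited tables, 28 encoding proteins of the large subunit (RPL) and 30 of the small subunit (RPS), while *RPL9A* (YGL147C) and *RPL16A* (YIL133C) were not analysed here. The study asked how nucleosomes are deposited on newly replicated DNA when Rtt109, the enzyme that acetylates lysine 56 of new histone H3, is missing. All 13 libraries came from asynchronous, formaldehyde-fixed cultures of a W303-derived *Saccharomyces cerevisiae* strain. The strain carries a thymidine kinase and the transporter h-ENT1, which together let cells incorporate EdU. Each library holds DNA left after micrococcal nuclease (MNase) digestion, which spares DNA wrapped in nucleosomes. The titles of the samples name an *rtt109* deletion, whereas their source label names a *chd1* deletion. The titles of 12 of them also read input DNA, whereas their descriptions read nascent chromatin, and the descriptions were followed here. The 12 nascent libraries were made by nascent chromatin avidin pulldown (NChAP), in which DNA that had taken up the thymidine analog EdU is biotinylated and pulled down. After 5 min in EdU, thymidine was added for another 5 min, and aliquots were then taken at 0, 2, 4, 6, 8 and 15 min in replicate 1 and at 2, 4, 6, 8, 15 and 25 min in replicate 2. Each replicate is 1 culture sampled over time. The remaining library is MNase-digested total chromatin, called bulk, from the same strain.

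Ribosomal proteins are among the most highly transcribed genes of growing yeast, and their expression follows nutrient supply through the TOR and protein kinase A pathways. In budding yeast most of their promoters are bound by Rap1, a factor that keeps a stretch of DNA free of stable nucleosomes, and Rap1 in turn recruits Fhl1, Ifh1 and, at many of them, Hmo1. Replication removes nucleosomes and bound factors, so that both have to be put back on the new DNA.

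The Pol2 occupancy annotated in the deposited tables placed every member at or above percentile 92.8 of all genes, with a median percentile of 98.0, and 56 of the 58 were annotated as TFIID-dominated. The replication time given in the same tables had a median of 44.8 for the members and 47.1 for the other genes, in the unit of the tables. Sequences upstream of the members were read from the RefSeq R64 assembly to show where the Rap1 motif lies. The core of the motif was searched as ACACCCNNA on both strands within 500 bp before the annotated start of each gene. It was found for 14 of 58 members (24.1%) and for 3.79% of 5940 other genes with such a window. With T in place of the second C, as ACATCCNNA, it was found for 25.9% of members and 4.95% of other genes. The Reb1 motif CGGGTAA, which marks another factor of open promoters, was found for 6.90% of members and 10.1% of other genes, and a run of 7 A or T (AAAAAAA) for 70.7% and 64.4%. The Rap1 patterns cannot match at the same position, whereas a run of A can begin in the last letters of a Rap1 match. The 15 matches of the Rap1 core lay between 233 and 472 bp before the start, with a median of 356 bp. These distances count from the gene start in R64 and not from the transcription start site. They can therefore not be set directly against the coverage windows used below. The windows below show it for members whose coverage is described later, with the match in capitals, read 5′ to 3′ on the coding strand of the gene.
RPL5, chr16:302835-302867 (+): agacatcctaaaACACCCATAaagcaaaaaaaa
RPL7A, chr7:366229-366261 (-): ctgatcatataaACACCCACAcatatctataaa
RPL8A, chr8:36246-36278 (-): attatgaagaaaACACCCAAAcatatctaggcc
RPL14A, chr11:431482-431514 (+): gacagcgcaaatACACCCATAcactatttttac
RPL16B, chr14:495370-495402 (-): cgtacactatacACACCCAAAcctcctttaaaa
RPS10A, chr15:866748-866780 (+): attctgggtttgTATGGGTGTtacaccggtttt
RPS18B, chr13:224117-224149 (-): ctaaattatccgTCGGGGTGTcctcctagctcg

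In *RPS10A* and *RPS18B* the capitals are the reverse complement of the core, which lies on the other strand. The divergent pair *RPS16B* and *RPL13A* shares a single match between them, shown on the coding strand of *RPS16B*, and *RPS23A* was the only member with 2 matches.
RPS16B, chr4:308133-308165 (-): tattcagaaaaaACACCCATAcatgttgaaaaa
The other 44 members had no match to these letters in this window.

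Values are coverage relative to the mean of each library, which is set to 1, in bins of 20 bp aligned to the transcription start site (TSS). They compare positions and genes within a library and not absolute amounts. Depth, read from the step between values, was 2.57 reads per bin in the 0 min library and 4.94 in the 4 min library of replicate 1, between 20.4 and 24.6 in the rest of replicate 1, between 39.2 and 78.1 in replicate 2 and 58.6 in bulk. The coding region of *RTT109* had coverage between 0 and 0.0547 in replicate 1 and 0.0578 in bulk, while *CHD1* was covered in every library (0.778 to 1.24). All genes on chromosome 12, *RTT109* among them, are listed at 0 in replicate 2, so that the deletion could not be read there. The 25 min library stood apart from all others in that promoters of most genes were covered (median over other genes 1.12, against 0.554 to 0.729 in the 11 earlier libraries), and it is reported but was not tested. For each gene, promoter coverage is the mean from -140 to 0 bp, +1 coverage that from 0 to 140 bp, where the first nucleosome of the gene lies, and body coverage that from 140 to 500 bp.

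The members had a low-coverage stretch upstream of the TSS that was wider and lower than that of the other genes in all 11 nascent libraries up to 15 min. On average over the 58 members the lowest bin of these libraries was at -110 bp with a coverage of 0.155. Width was counted below 50% of each profile's own mean from -500 to 500 bp. That mean was 0.616 for the members and 1.03 for the other genes. By this measure the members' stretch spanned 200 bp, from -240 to -40 bp. Over single libraries the lowest bin ranged from 0.0870 to 0.225 and the width from 180 to 220 bp. In the average over the other genes the lowest bin, at -90 bp, had a coverage of 0.524. In none of the 11 libraries did more than 20 bp of that profile fall below 50% of its mean. With the median over the other genes the lowest bin was 0.314 and the width 80 bp. The +1 peak of the members was at 70 bp with a height of 0.995, and that of the other genes at 50 bp with a height of 1.30. The body of the members was also less covered than that of other genes, with medians between 0.582 and 0.974 in the nascent libraries against 1.01 to 1.24.

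**Figure D1:**
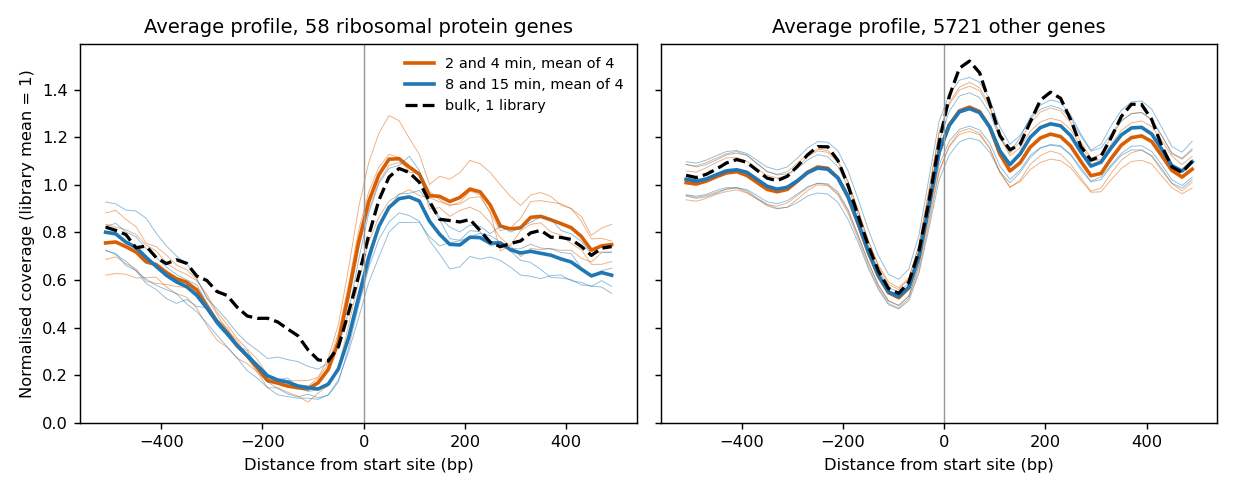
Average coverage (library mean = 1) against distance from the TSS in bp, for the 58 members (left) and 5721 other genes (right). Thin lines are the 8 libraries at 2 and 4 min (orange) and at 8 and 15 min (blue), thick lines their means over 4 libraries, and the dashed line is the bulk library. At -190 bp the members' bulk coverage of 0.439 lies above the 11 nascent libraries up to 15 min (0.147 to 0.270), while in the other genes bulk (0.997) lies within their range (0.842 to 1.06).

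In bulk chromatin the members' low stretch was narrower. The lowest bin of the bulk profile was at -70 bp with a coverage of 0.259. Below 50% of its own mean of 0.684 lay 80 bp, from -120 to -40 bp. At -250 bp the bulk profile was at 0.485, above all 11 nascent libraries (0.256 to 0.377), and at -130 bp it was at 0.366, again above all 11 (0.103 to 0.261). At -70 bp, next to the TSS, bulk coverage of 0.259 lay within the nascent range of 0.116 to 0.273. In the other genes bulk lay within the range of the 11 nascent libraries at each of these distances, with 1.16 at -250 bp (0.956 to 1.18), 0.638 at -130 bp (0.555 to 0.702) and 0.590 at -70 bp (0.512 to 0.646). Downstream of the TSS, at 70 and 210 bp, bulk of the other genes (1.47 and 1.39) lay above all 11 (highest 1.43 and 1.36). Bulk of the members (1.07 and 0.854) lay within the nascent range there (0.842 to 1.27 and 0.699 to 1.10). Bulk is 1 library, so features of this library and of bulk chromatin in general cannot be told apart. The width also depends on how genes are averaged. With the median over members it was 300 bp in nascent and 120 bp in bulk chromatin. With the median over the other genes it was 80 bp in both. For the 9 members without an A or B paralog it was 220 and 240 bp. Such a paralog is a second gene that shares the name up to that letter.

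The median promoter coverage of the members was below that of the other genes in every library, with the smallest fold difference at 25 min (0.850 against 1.12), when the median ratio of promoter to body was higher in the members (1.47) than in the other genes (1.09). From 0 to 15 min the median over members in replicate 1 was 0.303, 0.312, 0.199, 0.191, 0.172 and 0.163. In replicate 2 it was 0.359, 0.281, 0.189, 0.176 and 0.302 from 2 to 15 min and 0.850 at 25 min, and in bulk it was 0.329. In both replicates the value was highest at 2 min among the libraries up to 15 min and lowest at 8 or 15 min, and the 15 min library of replicate 2 was back near the level of 4 min. The median of the other genes stayed between 0.554 and 0.729 in the same 11 libraries. Between 44 and 58 of the 58 members were below the other genes' median in the nascent libraries, 44 of them in the shallow 0 min library and all 58 at 8 min in replicate 1, and 51 were below it in bulk.

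**Figure D2:**
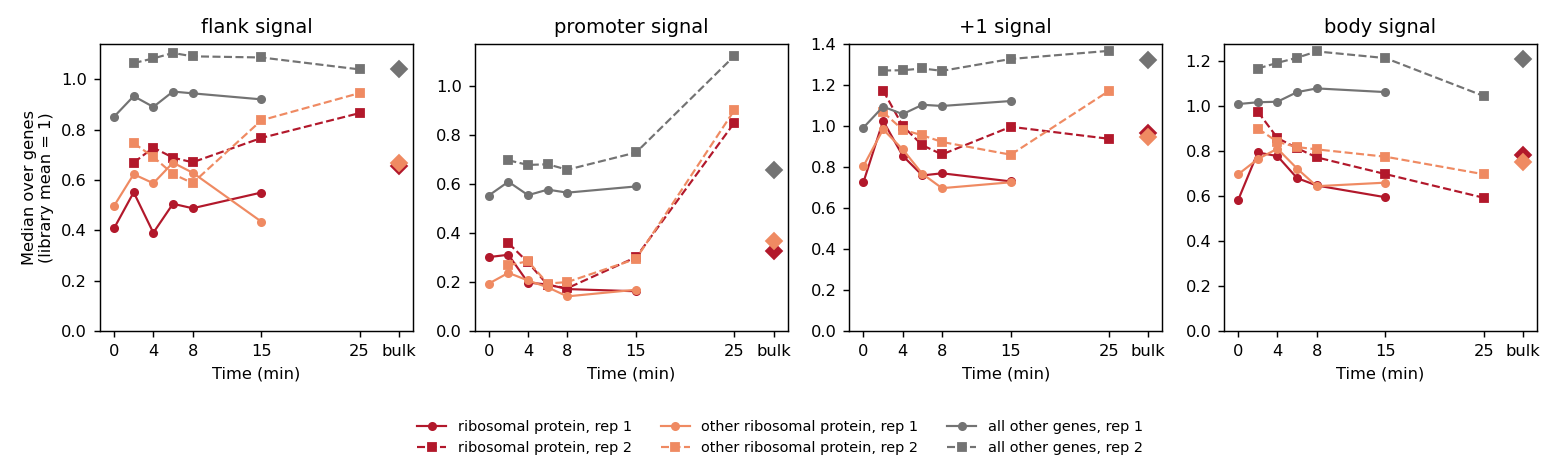
Median coverage over genes (library mean = 1) against time after the thymidine incubation in min, in 4 windows, for the 58 members (red), 60 other ribosomal protein genes (orange) and all other genes off chromosome 12 (grey). Circles and full lines are replicate 1, squares and dashed lines replicate 2, and diamonds the bulk library. Members' promoter coverage is between 0.163 and 0.359 up to 15 min and 0.850 at 25 min, and their +1 and body medians are highest at 2 min in both replicates.

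The question whether coverage of the members changed as nascent chromatin matured was tested gene by gene, with the libraries at 2 and 4 min (early, n = 4) against those at 8 and 15 min (late, n = 4). limma was fitted on log2(coverage + 0.1) over all genes, with Benjamini-Hochberg adjustment over all genes tested. The libraries of a replicate share a culture, so that p-values measure the spread between libraries. Of the members, 55 had body coverage above 0 in all 8 libraries and were tested, and *RPL1A*, *RPL4A* and *RPL4B* were not. No member passed an adjusted p of 0.05 in promoter, +1 or body coverage or in the ratio of promoter to body. Of all genes tested, 0.127%, 0.127%, 0.888% and 0.0726% did, in that order. In the promoter and at +1 all genes called were higher late. In the body 0.869% were higher and 0.0181% lower late, and in the ratio 0.0544% were higher and 0.0181% lower. With the replicate as a block, 83 genes were called in the body in place of 49, and again no member. At an unadjusted p under 0.05, 15 members were lower late in promoter coverage (4.86% of all genes tested), 9 in +1 coverage (5.1%), 15 in body coverage (4.58%) and 8 in the ratio (4.97%). Members higher late at that level were 0, 0, 1 and 0, so that 15, 9, 16 and 8 members passed in either direction, as 11.3%, 11.8%, 14.9% and 8.4% of all genes did.

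As a group the members had lower late than early coverage near the TSS, although no single member passed the test. The mean of the members' medians was 0.288 ± 0.0677 (SD, n = 4) early and 0.203 ± 0.0661 late in the promoter, 1.01 ± 0.130 and 0.841 ± 0.118 at +1, and 0.850 ± 0.0894 and 0.677 ± 0.0753 in the body. The median difference over the 55 members, late minus early on the log2 scale, was -0.27 in the promoter, -0.24 at +1 and -0.27 in the body. Over all genes tested it was -0.01, 0.01 and 0.04. The difference was below 0 in 41, 41 and 40 of the 55 members, against 50.7% of the other genes in the promoter, 2620 of 5456 at +1 and 44.7% in the body. The median had the same sign in each replicate, with medians of -0.32 and -0.26 in the promoter, -0.28 and -0.18 at +1 and -0.21 and -0.25 in the body, for replicates 1 and 2. Single members were lower late in both replicates in 27 cases in the promoter (30.1% of all genes tested), 30 at +1 (29.3%), 33 in the body (27.7%) and 17 in the ratio (30.9%). Further upstream, from -520 to -300 bp, the members' median difference was -0.01, and 28 of 55 were below 0. In 25 members the promoter, +1 and body differences were all below 0, and in 3 members all were above 0.

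Since the 15 min library of replicate 2 was apart from the other late libraries in the members' promoters, 2 min was also compared with 8 min alone, a choice made after the data were seen. Up to 15 min, the members' medians were already known to be highest at 2 min. The counts of members lower at 8 min therefore partly follow from that choice. Promoter coverage was lower at 8 min in 54 of 55 members, with a median of -0.65, against 55.9% of the other genes with a median of -0.06. At +1 it was lower in 50 of 55 members (51.4% of others) and in the body in 37 (42.2%). No member passed the test in this smaller comparison, for which the lowest adjusted p of a member was 0.453 in the promoter. With 0 min counted as early and 25 min as late, the promoter median was 0.01, and the promoter median of all genes shifted by 0.19 in that comparison.

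**Figure D3:**
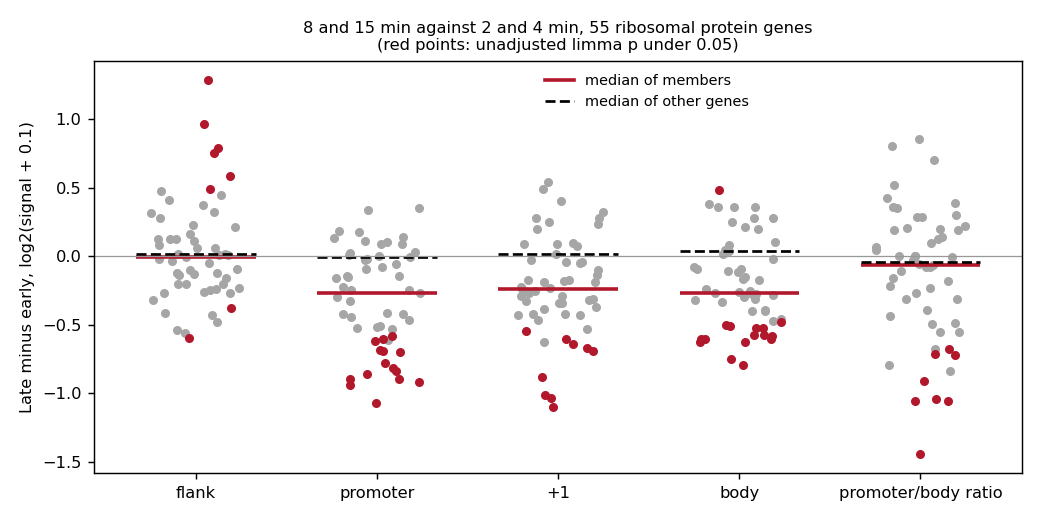
Late (8 and 15 min) minus early (2 and 4 min) difference on the log2(coverage + 0.1) scale for each of the 55 members tested, in 5 measures. Red points have an unadjusted limma p under 0.05, the red line is the median of the members and the dashed line that of the other genes. The members' median is -0.27, -0.24 and -0.27 in promoter, +1 and body, and -0.01 in the flank from -520 to -300 bp.

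The largest promoter differences were in genes of both subunits. *RPS2* (YGL123W), a small-subunit protein at the mRNA entry side, had promoter coverage of 0.488 and 0.202 at 2 and 4 min and 0.0879 and 0.0430 at 8 and 15 min in replicate 1, and 0.671 and 0.306 against 0.301 and 0.162 in replicate 2. The 4 min library of replicate 1 lay below the 8 min library of replicate 2, so that the groups overlapped (log2 difference -1.07, SE 0.362, limma adjusted p = 0.324). *RPL5* (YPL131W), which carries 5S rRNA into the large subunit, had 0.401 and 0.253 early against 0.0250 and 0.190 late in replicate 1, and 0.453 and 0.417 against 0.222 and 0.223 in replicate 2. All late libraries of *RPL5* lay below all early ones (-0.94, SE 0.317, limma adjusted p = 0.327). *RPL12B* (-0.92) and *RPS18A* (-0.90) came next, with overlapping groups. In replicates 1 and 2 *RPL12B* was at -1.73 and -0.11, and *RPS18A* at -1.61 and -0.19. *RPL7A* (YGL076C), another large-subunit protein, had 0.429 and 0.238 against 0.176 and 0.0677 in replicate 1 and 0.359 and 0.280 against 0.120 and 0.159 in replicate 2, also without overlap (-0.89, SE 0.242, limma adjusted p = 0.220). Groups did not overlap in 5 members, *RPL5*, *RPL7A*, *RPS7B*, *RPS8B* and *RPS14A*, all with late lower, and this was so in 2.96% of all genes tested. None of the members had all late above all early libraries in promoter, +1, body or ratio, as 3.68%, 3.61%, 5.67% and 2.03% of all genes did. Upstream of the promoter, from -520 to -300 bp, the late libraries were all above the early ones in *RPS7B* (1.29), *RPS8B* (0.79) and *RPS23A* (0.59). That was so in 247 of the 5510 genes tested. In *RPL20A* (-0.37) they were all below, as in 155 of the genes tested. These members were named after their values were seen.

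Other members did not show lower late coverage in both replicates. *RPS4A* (YJR145C) had promoter coverage of 0.407 and 0.0594 early and 0.190 and 0.179 late in replicate 1, and 0.157 and 0.313 against 0.462 and 0.401 in replicate 2 (0.35, SE 0.373, limma adjusted p = 0.754). The difference of *RPS4A* came from replicate 2, as it was 0.00 in replicate 1 and 0.71 in replicate 2. *RPS1B* (YML063W) had 0.228 and 0.169 against 0.396 and 0.117 in replicate 1 and 0.360 and 0.161 against 0.180 and 0.477 in replicate 2 (0.18, limma adjusted p = 0.884), which overlapped throughout. *RPS3* (YNL178W), which lines the mRNA entry channel, had late promoter coverage of 0.379 and 0.123 in replicate 1 but 0.620 and 0.910 in replicate 2, so that the difference was -0.83 in replicate 1, 0.33 in replicate 2 and -0.25 over both (limma adjusted p = 0.858).

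**Figure D4:**
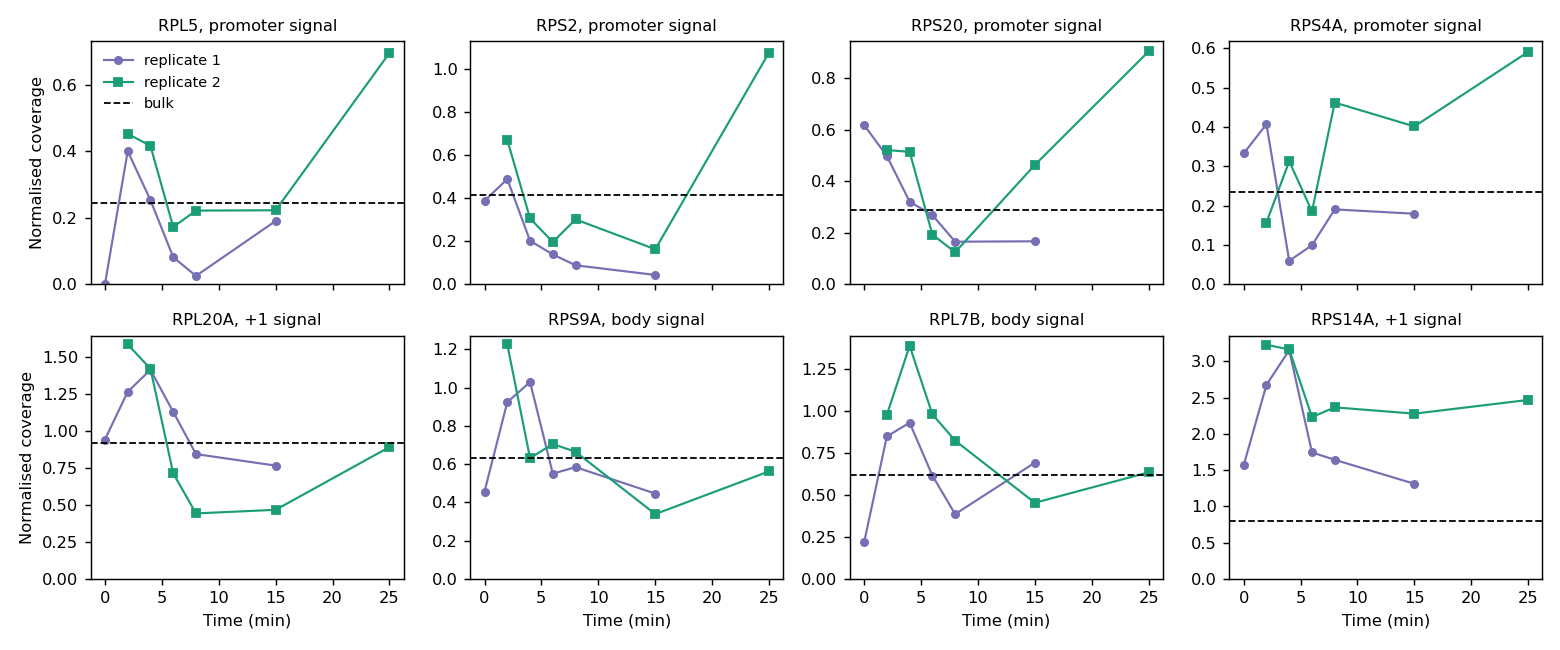
Coverage (library mean = 1) against time in min for 8 pairs of member and window, with circles for replicate 1, squares for replicate 2 and a dashed line for bulk. *RPL5*, *RPS2* and *RPS20* have lower promoter coverage at 8 min than at 2 min in both replicates, *RPS4A* only in replicate 1, and *RPS14A* at +1 lies above its bulk value of 0.804 in all nascent libraries.

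At +1, the position of the first nucleosome, *RPL20A* (YMR242C), a large-subunit protein, had coverage of 1.26 and 1.41 early against 0.841 and 0.764 late in replicate 1, and 1.58 and 1.42 against 0.441 and 0.465 in replicate 2. The late libraries of *RPL20A* were all below the early ones and its difference was the largest of the members (-1.10, SE 0.231, limma adjusted p = 0.112). *RPS12* (YOR369C), a protein of the small-subunit head, had 1.32 and 1.11 against 1.03 and 0.401 in replicate 1 and 1.16 and 1.39 against 0.412 and 0.524 in replicate 2 (-1.04, SE 0.268, limma adjusted p = 0.211). Groups did not overlap in 4 members, *RPL20A*, *RPS12*, *RPS14A* and *RPL3*, again with late lower (3.34% of all genes tested). *RPS0A* (YGR214W) had the largest difference in the other direction, with +1 means of 0.791 ± 0.280 early and 1.15 ± 0.227 late (SD, n = 4; 0.54, limma adjusted p = 0.485), and among members that moved the same way in both replicates *RPS10A* (YOR293W) was next at 0.40. In both genes the early and late libraries overlapped.

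In the body, *RPS9A* (YPL081W), a small-subunit protein involved in translational accuracy, had coverage of 0.924 and 1.03 early against 0.584 and 0.446 late in replicate 1, and 1.23 and 0.631 against 0.665 and 0.338 in replicate 2. The 4 min library of replicate 2 overlapped the late group (-0.79, SE 0.224, limma adjusted p = 0.0994). In the comparison of 2 min with 15 min *RPS9A* passed the test, with -1.25 and a limma adjusted p of 0.0138. That comparison holds 2 libraries in each group. *RPL7B* (YPL198W), the paralog of *RPL7A*, had body coverage of 0.848 and 0.929 against 0.385 and 0.691 in replicate 1 and 0.976 and 1.39 against 0.823 and 0.453 in replicate 2, without overlap (-0.75, SE 0.226, limma adjusted p = 0.122). *RPL7B* passed after quantile normalization, at a limma adjusted p of 0.0471. The share of all genes called in these alternative settings is not given here. These 2 passes can therefore not be set against the rate over all genes. Groups did not overlap in 7 members, *RPL2B*, *RPL6A*, *RPL7B*, *RPL12A*, *RPL19B*, *RPS9B* and *RPS14A*, all with late lower (2.86% of all genes tested). *RPS20* (YHL015W), a protein of the small-subunit head, went the other way with 0.515 ± 0.171 early and 0.735 ± 0.115 late (SD, n = 4; 0.48, limma adjusted p = 0.319), as did *RPL14A* (YKL006W) at 0.38.

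The ratio of promoter to body compares both windows within a library. *RPS20* had ratios of 0.893 and 1.22 early against 0.196 and 0.256 late in replicate 1, and 0.863 and 0.808 against 0.200 and 0.563 in replicate 2. All late values of *RPS20* were below all early ones (-1.44, SE 0.302, limma adjusted p = 0.212), and it was the only member without overlap (3.07% of all genes tested). *RPL8A* (YHL033C) followed at -1.06, with its 4 min library of replicate 1 at 2.31 against 0.443 to 0.574 in the other early libraries. *RPL2B* (YIL018W), a protein of the peptidyl transferase region, had 0.183 ± 0.0646 early and 0.476 ± 0.367 late (SD, n = 4; 0.85, limma adjusted p = 0.60), and *RPS4A* was at 0.70. The members' median was -0.07, against -0.04 over all genes tested, and it was above 0, at most 0.02, without the 2 min library of either replicate or the 8 min library of replicate 2.

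Other lists were used to see whether the members' values were shared. The 60 other ribosomal protein genes had medians of -0.16 in the promoter, -0.25 at +1 and -0.21 in the body, with 41, 41 and 48 of 60 below 0, and none was called. Their promoter median was -0.27 in replicate 1 but 0.02 in replicate 2. At +1 the replicates gave -0.29 and -0.19, and in the body -0.32 and -0.21. Genes for ribosome biogenesis, which make and modify rRNA, had medians of -0.12, -0.05 and -0.13 in 81 genes tested, with 1 gene called higher and 1 lower in the body. The 346 tested genes of the top 10% of Pol2 occupancy that are not ribosomal protein genes had medians of -0.08, -0.04 and -0.04. The 5 genes for regulators, *RAP1*, *FHL1*, *HMO1*, *ABF1* and *REB1*, had -0.10, 0.09 and -0.06, and none was called. Among the members, the large and small subunit gave similar promoter medians of -0.30 (25 genes) and -0.24 (30 genes). The 14 members with a Rap1 match had -0.30 and the 41 without -0.25. In the 9 members without an A or B paralog, among them *RPS2*, *RPL5* and *RPS20*, the promoter difference was below 0 in all 9, with a median of -0.51.

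Bulk chromatin was compared with the mean of the 11 nascent libraries up to 15 min. As bulk is 1 library there is no test, and a difference past 2-fold was counted. Promoter coverage was higher in bulk by a median of 0.41 on the log2 scale over the 58 members, against 0.08 over all genes. It was past 2-fold in 7 members (3.06% of all genes) and never in the other direction (1.73%). Bulk lay above all 11 nascent libraries in 6 members (11.7% of all genes) and below them in 1, *RPS14A* (7.12%), so that for most members its value was within the nascent range. At +1 and in the body the members' medians were 0.08 and 0.11, against 0.19 and 0.13 over all genes, and past 2-fold bulk was higher in 1 member at +1 (2.84%) and lower in 1 (0.665%), *RPL4B* and *RPS14A*, and higher in 0 (1.14%) and lower in 0 (0.586%) in the body. Bulk was above all 11 nascent libraries in 8 members at +1 (15.9%) and 3 in the body (14.5%), and below them in 1 at +1 (3.47%) and 1 in the body (4.74%). The ratio of promoter to body was higher in bulk by a median of 0.42 over 54 members, against -0.04 over all genes, and past 2-fold in 9 members (2.05%), with 0 lower (2.1%). For the ratio 3 members lay above all 11 nascent libraries (5.64%) and 0 below (7.18%). In the 9 members without an A or B paralog the median was 0.15 in the promoter, 0.43 in the body and -0.07 for the ratio. Of these 9, 0 were past 2-fold in the promoter or the ratio. The 60 other ribosomal protein genes had a promoter median of 0.54 with 13 past 2-fold. Ribosome biogenesis genes had 0.08, with 0 higher past 2-fold, and the genes of the top 10% of Pol2 occupancy 0.11, with 9 higher of 366. The counts depend on the constant added before the log: with 1 in place of 0.1 no member was past 2-fold in the promoter, and with 0.01 there were 17. The share of all genes at these constants is not given here, so that these counts cannot be set against the 3.06% above.

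Among single members, *RPL13B* (YMR142C), a large-subunit protein, had a promoter coverage of 0.292 in bulk and 0 to 0.084 in the nascent libraries from 2 to 15 min, but 0.337 in the shallow 0 min library (1.47 against the nascent mean). *RPS18B* (YML026C), a small-subunit head protein whose Rap1 match is shown above, had 0.473 in bulk against 0 to 0.343 (1.29). Bulk was above all 11 nascent libraries up to 15 min in *RPS18B* and also in *RPL14A* (0.229 against 0 to 0.220) and *RPL17A* (0.329 against 0.0184 to 0.295). *RPS9A* had the lowest bulk promoter coverage relative to nascent, 0.0755 against 0.0262 to 0.446 (-0.79). At +1, *RPL12B* (YDR418W), a protein at the base of the ribosomal stalk, had 1.74 in bulk against 0.112 to 1.5 (0.88). In the body, *RPL3* (YOR063W), which reaches the peptidyl transferase centre, had 0.980 in bulk against 0.174 to 0.83 (0.70), above all 11, and *RPL8A* had 0.943 against 0.202 to 1.25 (0.55).

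**Figure D5:**
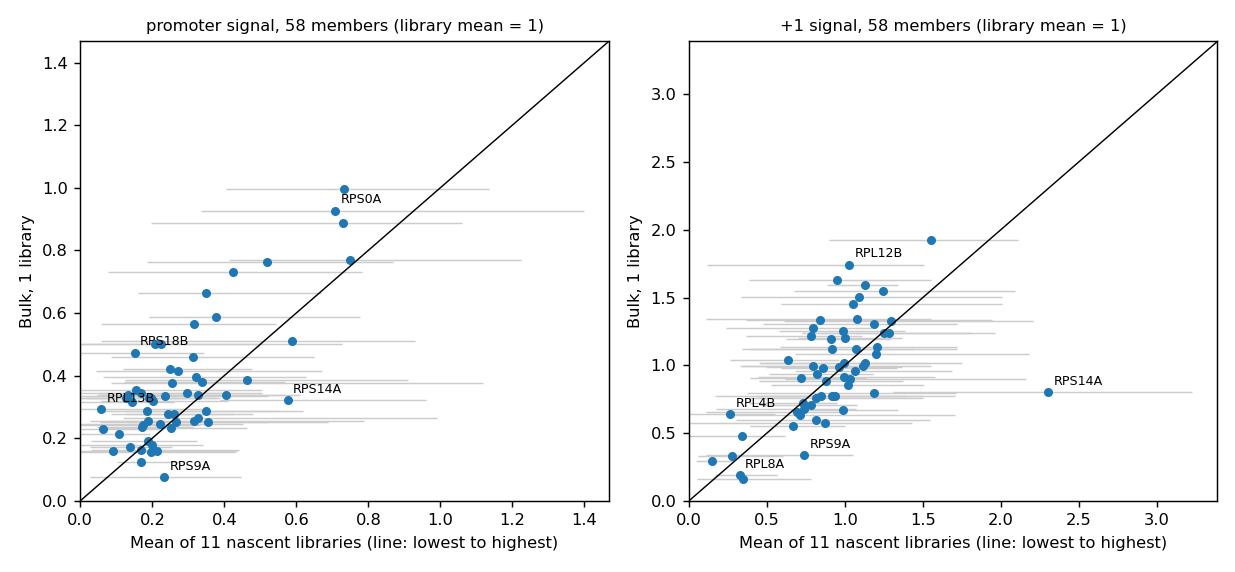
Bulk coverage against the mean of the 11 nascent libraries up to 15 min for the 58 members (library mean = 1), in the promoter (left) and at +1 (right). Horizontal lines run from the lowest to the highest nascent library, and the diagonal marks equal coverage. Most promoter points lie above the diagonal (median log2 difference 0.41), while at +1 *RPS14A* lies far to the right, with 0.804 in bulk and 1.31 to 3.23 in nascent chromatin.

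*RPS14A* (YCR031C), a protein of the small-subunit platform, was the member that differed most in the opposite direction. Its +1 coverage was 1.57, 2.68, 3.16, 1.74, 1.64 and 1.31 from 0 to 15 min in replicate 1 and 3.23, 3.16, 2.23, 2.37, 2.28 and 2.47 from 2 to 25 min in replicate 2, against 0.804 in bulk (-1.36). All nascent libraries were above bulk, and the early ones were the highest. Its promoter coverage of 0.322 in bulk was likewise below all 11 nascent libraries (0.388 to 0.962). The genes next to it on chromosome 3 had high nascent +1 coverage too: nascent means were 3.38 in *FEN2*, 2.25 in *RIM1*, 2.99 in *SYP1* and 2.88 in *BPH1*, against 1.39, 1.21, 1.69 and 1.43 in bulk. All 4 neighbours were thus higher in nascent than in bulk chromatin, as *RPS14A* was.

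Many members have a paralog with near-identical coding sequence, which limits their body values. The tables carry a letter in place of a value in 1.69% of the cells, and 23 of the 58 members had such masked bins downstream of the TSS, 9 of them within the first 500 bp, where body coverage was measured. All 23 hold stretches of 50 bases that occur more than once in R64, as do 219 of 224 genes with masked bins in the whole tables (97.8%). A further 20 members hold repeated stretches without a masked bin. The pair *RPL4A* and *RPL4B* (YBR031W and YDR012W), whose protein lines the exit tunnel, is identical over 422 bp. The start of that run is shown because no read that lies within it can be given to either gene.
RPL4A, chr2:300562-300621 (+), and RPL4B, chr4:472249-472308 (+): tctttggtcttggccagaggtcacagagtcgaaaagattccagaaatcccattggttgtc

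Body coverage of *RPL4A* was 0 to 0.215 in the 11 nascent libraries and 0 in bulk, and that of *RPL4B* 0 to 0.105 and 0.0834, while at +1 bulk was at 1.04 and 0.642, above all 11 nascent libraries (0.262 to 0.963 and 0 to 0.553). In the first 500 bp 17 bins of *RPL4A* and 9 of *RPL4B* were masked, so that their body values are means over the bins left. The gene start of *RPL4A* is at 300166, so that the run shown can cover only the far part of the body window. Identical runs were 465 bp long in *RPS8A* and *RPS8B*, 326 bp in *RPL11A* and *RPL11B*, 315 bp in *RPL1A* and *RPL1B* and 311 bp in *RPS6A* and *RPS6B* (YPL090C and YBR181C), the pair whose protein is phosphorylated under TOR control. The 3 highest ratios of promoter to body in bulk were in such members, 5.79 in *RPS8A* (YBL072C), 4.12 in *RPL1B* (YGL135W) and 3.88 in *RPL1A* (YPL220W), where body coverage was 0.0880, 0.0775 and 0.0409. The 3 lowest were 0.120 in *RPS9A*, 0.151 in *RPS12* and 0.159 in *RPL18B* (YNL301C), with body coverage of 0.630, 1.18 and 0.782. The ratio of *RPS6A* was higher in bulk (0.766) than in all 11 nascent libraries (0 to 0.481), the largest difference of the members at 1.54. *RPS6A* had 0 masked bins in the first 500 bp. Values of *RPL16B* (YNL069C), whose paralog was not analysed here, were within the nascent range in bulk, with a promoter coverage of 0.243 against 0 to 0.334.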

How the data were processed

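Coverage of 12 nascent libraries and 1 bulk library of MNase-digested DNA was deposited by the authors as TSS-aligned tables, 1 per replicate and 1 for bulk, in bins of 20 bp for each strand. Per the labels the reads were processed with CASAVA 1.7.0, and the aligner and genome build are not given in the sources used here. The deposited coverage signal is relative to the mean of the library, and values in a library came in whole steps (tolerance 0.05), so that the inverse of the step gives the reads per bin. Cells with the letter R were taken as missing. A further 37956 rows of 6 names that match no sample were not used. Groups were taken from the labels.

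Both strands were averaged, and window means were taken per gene. Genes with body coverage above 0 in all 8 libraries were tested on log2(coverage + 0.1) with limma 3.58.1 in R 4.3.3, tested on simulated data first. Replicate numbers pair the libraries because each replicate is 1 culture sampled over time. Across genes, early and late libraries of the same replicate deviated from their group means with correlations of only 0.0645 (promoter), 0.0517 (+1) and 0.0318 (body). Bulk was compared without a test. Tables and figures used Python 3.11.15, numpy 2.4.6, pandas 2.3.3 and matplotlib 3.10.9. Motifs and sequences were taken from RefSeq R64 by gene name, since its build may differ from that of the tables, and no coordinate of the tables was used with it.

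The members, the lists and the windows were chosen with earlier results of these data known. Genes named are, for each measure, members past the threshold or else the 2 with the largest difference in each direction that moved the same way in both replicates, the 3 highest and 3 lowest bulk ratios, the 2 members furthest from nascent in each direction in bulk, and *RPL3*, *RPS3*, *RPL4A*, *RPL4B*, *RPL16B*, *RPS6A* and *RPS6B*. *RPL7A*, *RPL17A*, *RPS18A* and the members without overlap between groups were named after their values were seen. The single values of 1 member that the rule names are not reported here. Alternatives were the pseudocount, the filter, the scaling, masked bins, each strand, the windows, the time groups, the replicate block and the omission of replicates and libraries. The comparison of 2 with 8 min and the flank window were added after the data were seen.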

Additional observations from a re-analysis of the deposited data

Results flagged for a closer look

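In 7 of 48 groups of libraries examined, the highest or lowest library lay further from the rest than Dixon's limit, where chance gives about 1 in 20. Of these, 4 concern the members' medians in replicate 2. Among the late libraries, the 15 min library of replicate 2 had a median promoter coverage of 0.302 against 0.163 to 0.176, and a median ratio of promoter to body of 0.483 against 0.242 to 0.269. Within replicate 2, the 25 min library had 0.850 against 0.176 to 0.359 in the promoter and 1.47 against 0.242 to 0.483 in the ratio. The other genes' promoter median was 0.729 and 1.12 in these libraries, against 0.659 to 0.697 in the rest of replicate 2. In single members, *RPL5* had a promoter coverage of 0.0250 at 8 min in replicate 1, against 0.190 to 0.223 in the other late libraries. *RPS20* had a ratio of 0.563 at 15 min in replicate 2, against 0.196 to 0.256, and *RPL8A* a ratio of 2.31 at 4 min in replicate 1, a library of 4.94 reads per bin, against 0.443 to 0.574 in the other early libraries.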

How the results depend on the processing

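No member was called in promoter, +1 or ratio under any alternative. In the body 1 member was called under quantile normalization (*RPL7B*), 1 for 2 min against 15 min and 1 with time as a number (both *RPS9A*). Over all genes the number called in the body ranged from 0 to 89 across the alternatives. The number over all genes in each of the settings that called a member is not given here. These calls can therefore not be set against the rate over all genes. The members' early to late promoter median was between -0.44 and -0.20 with each library left out, -0.32 and -0.26 with each replicate left out, 0.013 for 0 to 4 min against 8 to 25 min and -0.65 for 2 min against 8 min. At +1 it was -0.32 to -0.16 and in the body -0.33 to -0.19 with a library left out. The ratio median was -0.26 to 0.02 with a library left out, 0.27 for 0 to 4 min against 8 to 25 min, -0.63 for 2 min against 8 min and 0.08 with the promoter taken from -300 bp. The replicate block left each median as it was and called 0 members, and over all genes 7 in the promoter, 5 at +1, 83 in the body and 4 in the ratio.

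Against bulk, the promoter median was 0.092 and the ratio median 0.12 with a pseudocount of 1, where 0 members were past 2-fold in promoter, +1 or ratio. Members past the fold in either direction numbered 7 in the promoter, and 2 with all 12 nascent libraries, 17 with a pseudocount of 0.01, 14 from -300 bp, 23 at 1.5-fold and 11 on the forward strand. At +1 they were 2, and 4 with 15 min alone, 1 to 4 with a replicate left out, 5 after quantile normalization, 10 at 1.5-fold, 9 on the forward and 5 on the reverse strand. In the body they were 0, and 1 with 15 min alone, 1 without replicate 1, 2 with a pseudocount of 0.01, 1 with equal medians, 2 after quantile normalization and 4 at 1.5-fold. For the ratio they were 9, and 14 with 15 min alone, 15 with a pseudocount of 0.01, 15 from -300 bp and 23 at 1.5-fold. The share over all genes under each alternative is not given here. The counts therefore show only how they move with the setting, and not whether members stand out from other genes. In the profile of members, the bulk +1 height was 1.21 without paralogs, and the bulk width 120 bp with the median and 240 bp without paralogs. The nascent lowest bin was 0.0785 with the median and 0.232 with bins at 0 left out, and the nascent width 300, 160, 240 and 220 bp with the median, without bins at 0, for members with a value at every bin and without paralogs. The causes were not tested. Depth limits the 0 and 4 min libraries of replicate 1 most.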
